A study of Drosophila melanogaster with 10 samples.

Results

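A set of 9 receptor genes for octopamine, tyramine and related amines was followed in Kenyon cells (KCs) of *Drosophila melanogaster*. The set was fixed by name: Oamb, Octalpha2R, Octbeta1R, Octbeta2R, Octbeta3R, Oct-TyrR, TyrR, TyrRII and CG13579. All 9 of 9 genes were found among the 23882 features counted in each sample, and all 9 passed the filter on low counts. CG13579 was put in the set because of its difference between the genotypes in these same samples, so that difference is described here without a test. The other 8 genes belong to the set by family.

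The study asked how loss of the serotonin transporter changes transcription in KCs, the intrinsic neurons of the mushroom body. Flies were homozygous for dSERT16, an imprecise P-element excision that removes the 5′ end of the transporter gene SerT, or for dSERT4, the background-matched control, which carries a smaller deletion of its own. Both genotypes carried Mef2(P247)-gal4 driving UAS-nls.GFP, a driver that reaches most KCs but favours α/β and γ over α′/β′ cells. Female central brains without optic lobes were pooled on the day of eclosion (day 0), GFP-positive cells were sorted, and bulk SMART-seq libraries were made from 5 samples of each genotype. Replicate numbers follow the prefixes of the sample labels. Replicate 1 is the pair without columns in the deposited expression table, and the comparison between genotypes used the 4 pairs of replicates 2 to 5.

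Octopamine and tyramine are the insect counterparts of noradrenaline and adrenaline. Both are made from tyrosine, and their receptors are G protein-coupled. Oamb resembles the vertebrate α1-adrenergic receptor and raises intracellular calcium, Octalpha2R resembles the α2 type, and the 3 Octbeta receptors raise cAMP. Oct-TyrR, TyrR and TyrRII respond to tyramine, though not all of them to tyramine alone. In the mushroom body, octopamine is known for its part in appetitive olfactory learning. CG13579 encodes an orphan receptor related to these by sequence.

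Depth was ample for most of the set. Reads assigned to genes ranged from 18446396 to 69997102 per sample, and the 9 receptor genes took between 30551 and 133514 of them. The KC marker genes summed to between 21989.6 and 25842 CPM (counts scaled to the TMM-normalized library size) in all 10 samples. None of the 16 was called between the genotypes by edgeR, which called 0.495% of all genes tested. With so low a share, the lack of a call says little about the markers. SerT held 183, 51, 64, 69 and 19 reads in dSERT4 replicates 1 to 5 and 51, 16, 40, 6 and 5 reads in dSERT16, with lower CPM in dSERT16 in 5 of 5 pairs of the same number. One control library stood apart. The genes prom and Syngr, which were high in all dSERT16 samples (351 to 711 CPM and 696 to 1063 CPM), reached 54.8 and 132 CPM in dSERT4 replicate 4 against 1.54 to 4.16 and 28.0 to 42.8 CPM in the other dSERT4 samples. The 2 libraries of replicate 1 held fewer glial transcripts: the 12 glial markers summed to 328 and 585 CPM there and to between 1043 and 1794 CPM in replicates 2 to 5. Of the 12, alrm and moody add nothing to these sums. Their spans lie wholly under other genes, and they are listed at 0 in every sample. Fewer cells of a type and less RNA per cell cannot be told apart in bulk samples.

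Octbeta1R and Oamb were by far the most abundant of the 9 receptor transcripts in control KCs. Per kb of exon, Octbeta1R stood at 165 ± 16.2 CPM per kb (SD, n = 5) and Oamb at 97.0 ± 6.74 CPM per kb in dSERT4. Together they made up 82.4% ± 0.844 of the summed level of the set in dSERT4 and 84.3% ± 0.633 in dSERT16 (SD, n = 5). Among 20 amine receptors, the set plus the dopamine, serotonin and muscarinic receptors other than mAChR-C, Octbeta1R ranked 3 and Oamb ranked 5 by level per kb of exon. Dop1R2 and DopEcR, receptors for dopamine, ranked above both. This ranking used exon length alone and was not repeated by gene span, introns included. mAChR-C could not be ranked, since its span lies wholly under other genes and no read was counted for it.

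**Figure D1:**
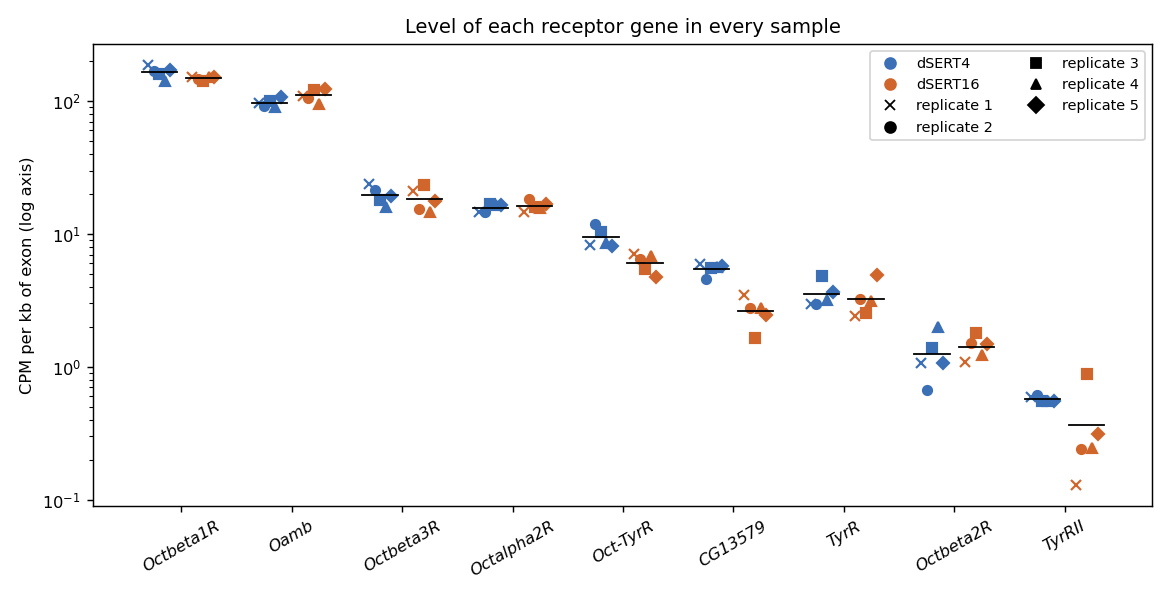
Level of each receptor gene as CPM per kb of exon, on a log axis, for dSERT4 (blue) and dSERT16 (orange); symbols are samples by replicate number and bars are means of 5 samples. Octbeta1R and Oamb lie above all others in every sample, and TyrRII is spread from 0.130 to 0.886 CPM per kb in dSERT16.

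The remaining 7 receptors followed at a distance. Octbeta3R (19.7 ± 2.97 CPM per kb, SD, n = 5, dSERT4) and Octalpha2R (15.8 ± 1.07) came next, and their ranges over the control samples overlapped. Oct-TyrR followed at 9.46 ± 1.66 CPM per kb. CG13579 (5.49 ± 0.525) and TyrR (3.52 ± 0.782) overlapped in range. Octbeta2R (1.24 ± 0.496) and TyrRII (0.576 ± 0.0282) were lowest. In dSERT4 every other pair of neighbours in this order had ranges that did not overlap.

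The order below the first 2 receptors depended on the length used. Reads were counted over the whole span of a gene, introns included, which was tested on the files: of 1956 protein-coding genes whose span lies wholly under other genes, 1956 had no read, against 178 of 6980 genes free of such overlap. The deposited TPM values scale with the same span. In 1 sample, 99.99% of 6921 genes had a ratio of reads to TPM within 5% of proportion to the gene span, against 8.96% for exon length. In TPM (mean of 4 dSERT4 samples), Octbeta1R (160.0) and Oamb (89.0) again led, Octalpha2R (13.4) and Octbeta3R (13.1) were level, TyrR (6.51) stood above Oct-TyrR (5.02) and CG13579 (2.39), and TyrRII (0.984) stood beside Octbeta2R (0.912).

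Except for Oct-TyrR and CG13579, the genes lie on 3R and were placed on BDGP6 as follows. Octbeta1R runs from 22497215 to 22520078 on the + strand, Oamb from 20689018 to 20714577 on the - strand and Octalpha2R from 18799280 to 18849224 on the - strand. No base of these spans is shared with another counted gene, and the same holds for TyrR (17750129 to 17763188, - strand) and TyrRII (17736611 to 17747470, + strand). Octbeta2R (12550625 to 12595725, - strand) shares 533 bp of its span, with mir-284 among others. Octbeta3R (12511570 to 12548229, - strand) shares 3977 bp with Hug, on the opposite strand, and a long noncoding RNA, and CG13579 shares 3125 bp with nested genes. Oct-TyrR lies on 3L from 22035003 to 22065279 on the + strand and shares 655 bp with transposon insertions. Reads in these shared stretches were not counted for the receptors.

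**Figure D2:**
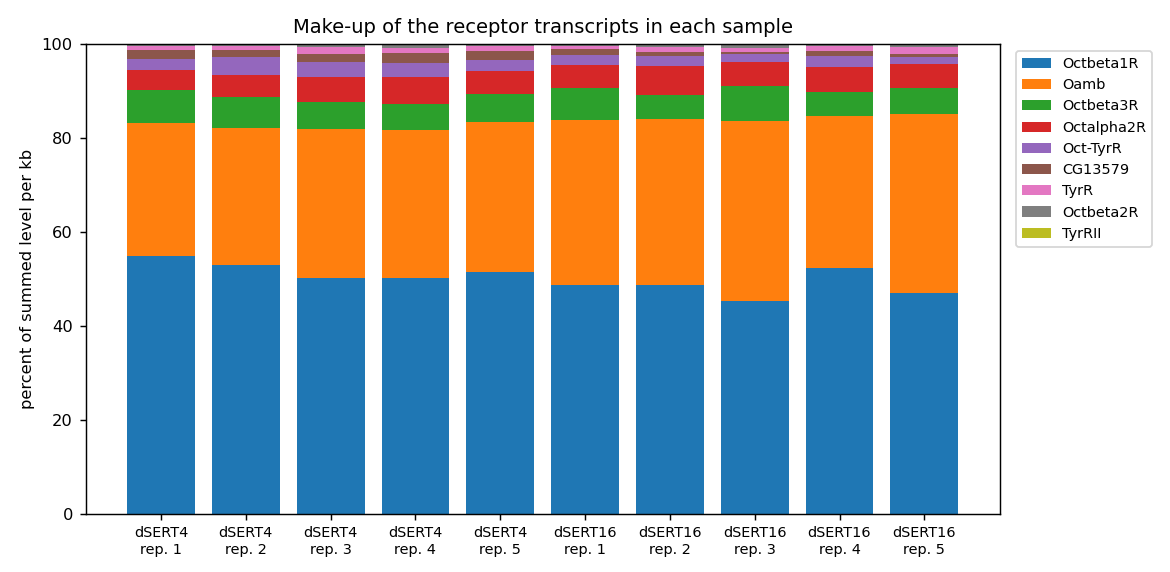
Share of each receptor gene in the summed level per kb of exon of the 9 genes, in percent, for each of 10 samples. Octbeta1R and Oamb fill 81.6% to 85.1% of every bar.

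Oamb, the α1-like octopamine receptor, was counted at 536, 509, 557, 495 and 588 CPM in dSERT4 replicates 1 to 5 and at 604, 586, 670.4, 525 and 683 CPM in dSERT16. The dSERT16 value was the higher one in 5 of 5 pairs, while the ranges of the genotypes overlapped. The log2 fold change of dSERT16 over dSERT4 was 0.20 (SE 0.10, 95% interval -0.01 to 0.40) and did not pass the threshold (edgeR quasi-likelihood test, adjusted p = 0.734). That fit left the pairing out. With the replicate number as a block, the estimate was 0.19 (SE 0.067, edgeR adjusted p = 0.363). With the block over all 5 pairs it was 0.19 (SE 0.058, edgeR adjusted p = 0.204), and neither fit passed the threshold. Octalpha2R, the α2-like receptor, had the log2 fold change nearest to 0 of the 9 genes, with 143 to 164.5 CPM among the controls and 144 to 179 CPM among the mutants. The estimate was 0.05 (95% interval -0.15 to 0.24, edgeR adjusted p = 0.983), so that a difference of the size seen for Oct-TyrR lay outside the interval.

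Octbeta1R, a receptor that raises cAMP, was counted at 1008, 908, 860.4, 769.95 and 922 CPM in dSERT4 replicates 1 to 5 and at 814, 789, 769, 826 and 822 CPM in dSERT16. Values were lower in dSERT16 in 4 of 5 pairs and higher in replicate 4. The log2 fold change was -0.11 (SE 0.08, 95% interval -0.28 to 0.05, edgeR adjusted p = 0.860). The ratio of Oamb to Octbeta1R per kb, which needs no scaling between libraries, was 0.519, 0.547, 0.633, 0.628 and 0.623 in dSERT4 and 0.725, 0.725, 0.851, 0.621 and 0.811 in dSERT16. The ranges overlapped through dSERT16 replicate 4. Oamb made up 30.5% ± 1.68 of the summed level per kb in control KCs (28.4% to 32.0%) and 35.9% ± 2.46 in mutant KCs (32.5% to 38.5%; SD, n = 5), and these ranges did not overlap. The ratio and the share were picked after their values were seen and were not tested.

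Octbeta2R and Octbeta3R lie next to each other on 3R, with 2395 bp between them, and were counted at very different levels. Octbeta3R was counted at 144, 131, 110.3, 97.0 and 118 CPM in dSERT4 and at 129, 93.8, 142, 89.6 and 107 CPM in dSERT16, with a log2 fold change of -0.08 (95% interval -0.38 to 0.23, edgeR adjusted p = 0.983). Octbeta2R was counted at 8.04, 5.08, 10.5, 15.1 and 8.04 CPM in dSERT4 and at 8.12, 11.4, 13.6, 9.22 and 11.1 CPM in dSERT16. Its highest control value came from dSERT4 replicate 4, the library that stood apart: the log2 fold change was 0.24 with it and 0.53 without it (edgeR adjusted p = 0.958 and 0.838). Without dSERT4 replicate 2, the lowest control sample, it was 0.022, without dSERT4 replicate 5 it was 0.16 and without dSERT16 replicate 3 it was 0.13. The genotypes overlapped for both genes.

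Oct-TyrR, the octopamine-tyramine receptor, was the 1 of 8 receptors chosen by family whose genotypes did not overlap. It was counted at 30.6, 44.1, 38.0, 31.6 and 29.9 CPM in dSERT4 replicates 1 to 5 and at 25.9, 23.8, 20.1, 25.0 and 17.4 CPM in dSERT16. Every dSERT4 sample was above every dSERT16 sample, with the smallest step in replicate 1. Lower values without overlap over all 5 pairs were found in 1.28% of all genes tested, and over the 4 pairs in 2.39%. These shares count only the direction seen for Oct-TyrR, and the shares over both directions are larger.

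Over replicates 2 to 5, Oct-TyrR was at 35.9 ± 6.50 CPM in control and 21.6 ± 3.47 CPM in mutant KCs (SD, n = 4). The log2 fold change was -0.74 (SE 0.17, 95% interval -1.11 to -0.37), a ratio of 0.599. The edgeR test did not call it (adjusted p = 0.0877). The same counts passed the threshold in DESeq2 (adjusted p = 0.00281) and in edgeR without the filter on low counts (adjusted p = 0.0244); these call 1.42% and 0.498% of all genes they test. Without dSERT4 replicate 4 the log2 fold change was -0.79 (edgeR adjusted p = 0.136). The call therefore rested on the tool and the filter, while the estimate stayed between -0.81 and -0.62 over 16 alternatives.

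**Figure D3:**
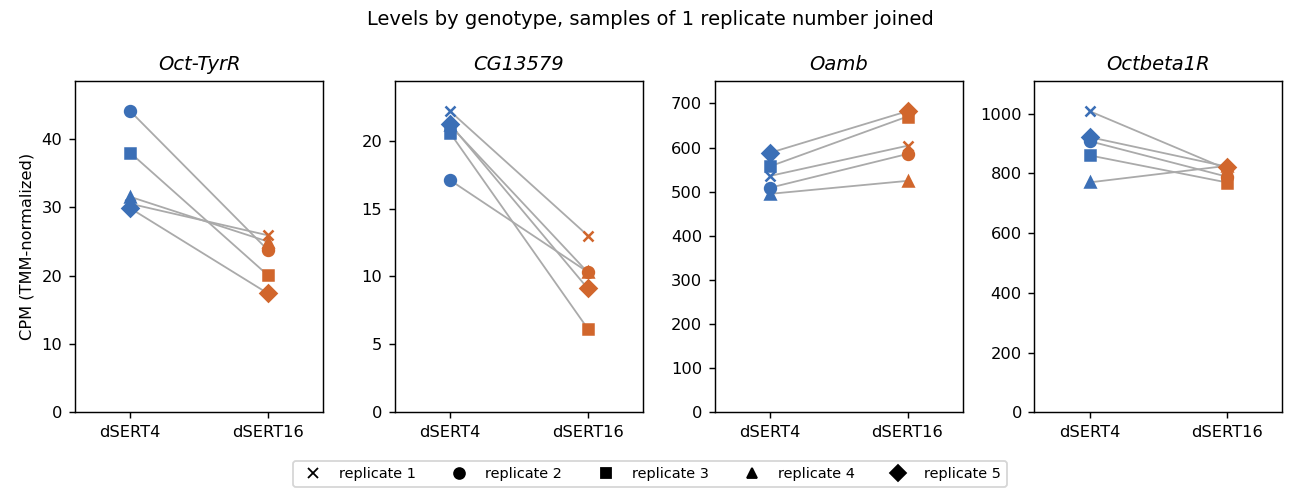
CPM of Oct-TyrR, CG13579, Oamb and Octbeta1R in dSERT4 (blue) and dSERT16 (orange), with lines joining the samples of 1 replicate number; each axis starts at 0. The genotypes do not overlap for Oct-TyrR and CG13579 and overlap for Oamb and Octbeta1R.

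TyrR and TyrRII, both tyramine receptors, are neighbours on 3R with 2658 bp between them. TyrR was counted at 16.3, 16.3, 26.5, 17.4 and 20.0 CPM in dSERT4 and at 13.3, 17.8, 14.0, 17.1 and 26.8 CPM in dSERT16. The genotypes overlapped fully (log2 fold change -0.09, 95% interval -0.56 to 0.39, edgeR adjusted p = 0.994). TyrRII, the least abundant by exon length, was even in dSERT4 at 2.45 to 2.73 CPM. In dSERT16 it was counted at 0.574, 1.07, 3.92, 1.08 and 1.38 CPM, or 37, 28, 206, 20 and 30 reads, so that 4 samples lay below all controls and replicate 3 lay above them. The log2 fold change was -0.42 with an interval from -1.54 to 0.69 (edgeR adjusted p = 0.955), and it was -1.10 without dSERT16 replicate 3 (adjusted p = 0.678). Without dSERT16 replicate 2 or 4 it was -0.23 or -0.24, and over all samples left out in turn the adjusted p ranged from 0.678 to 0.9997 (edgeR).

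CG13579, the orphan receptor, was counted at 22.2, 17.1, 20.6, 21.1 and 21.2 CPM in dSERT4 replicates 1 to 5 and at 13.0, 10.3, 6.15, 10.3 and 9.12 CPM in dSERT16. The lowest control sample was above the highest mutant sample. Over replicates 2 to 5 the means were 20.0 ± 1.96 and 8.98 ± 1.96 CPM (SD, n = 4), and the log2 fold change was -1.16 (SE 0.21), or 2.23-fold lower in dSERT16. Without dSERT4 replicate 4 it was -1.13. These values chose the gene and support nothing further.

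CG13579 lies on 2R from 24455292 to 24490656 (BDGP6, + strand), 44217 bp from SerT, on the chromosome that carries the dSERT alleles. Of 8 annotated genes between them, 2 had enough counted reads to be tested. One was prom, at 15.5 ± 26.2 CPM in control samples and 539 ± 151 CPM in mutant samples (SD, n = 4), with a log2 fold change of 5.17 (SE 1.37, edgeR adjusted p = 0.396). Its wide error included the 54.8 CPM of dSERT4 replicate 4. The other, CG3483, held at most 26 reads in a sample. On the far side, Ssl, Prosalpha4T2 and CG13581 held at most 66, 131 and 170 reads in a sample, and none was called. The genes CG3492, CG3494 and CG16837 lie inside the span of CG13579 and are listed at 0 by the counting described above. Between SerT and CG13579, the same holds for CG45069 and PIG-Z, which have the same span, and for CG42383, inside prom. A listed 0 of these genes does not show absence. The part of the chromosomal position in the values of CG13579 was not tested.

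**Figure D4:**
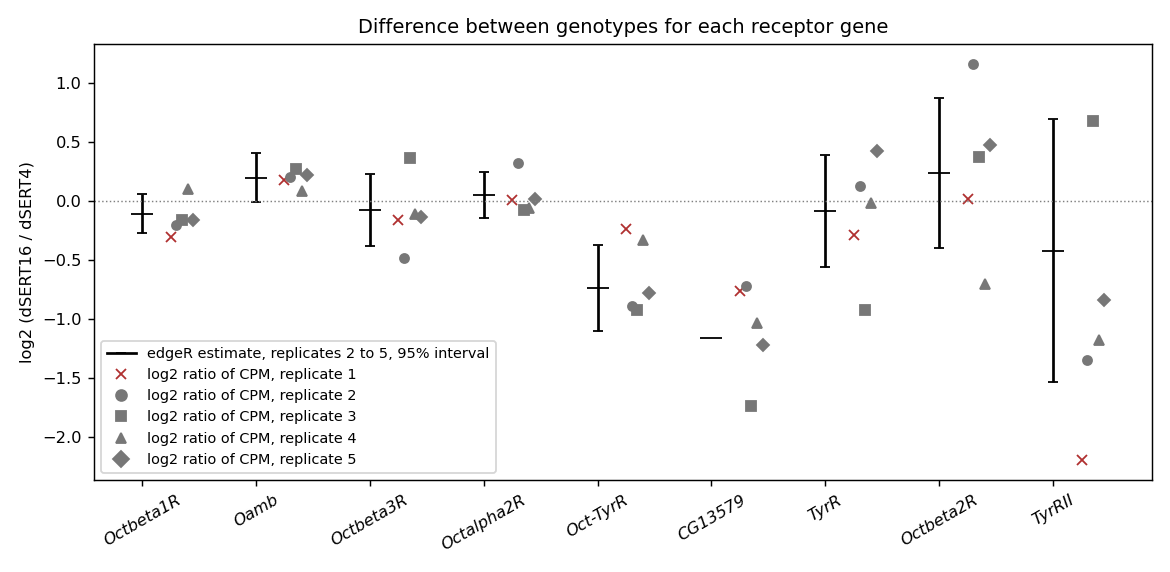
Log2 fold change of dSERT16 over dSERT4 for each receptor gene: black bars give the edgeR estimate over replicates 2 to 5 with its 95% interval (for CG13579, chosen for its difference, the estimate alone), and symbols give the log2 ratio of CPM for each replicate number. Of the 8 intervals, that of Oct-TyrR lies wholly below 0.

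Across the 8 receptors chosen by family, edgeR called 0 between the genotypes, where it called 0.495% of all 8690 genes tested. At an unadjusted p under 0.05 there was 1 of 8 (Oct-TyrR), against 7.01% of all genes, and DESeq2 also called 1 of 8, against 1.42%. The median log2 fold change of the 8 was -0.08, beside 0.00 over all genes tested. The summed level of the 9 genes was 1792 ± 115 CPM in control KCs and 1751 ± 71.7 CPM in mutant KCs (SD, n = 5).

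Replicate 1 was compared with replicates 2 to 5 over both genotypes, a contrast that did not choose any gene of the set. Replicate 1 is 1 pair of samples, which the study processed in parallel, and the fit took all samples as independent. If a pair shares a collection, the p-values of this fit do not measure the spread between collections. edgeR called 0 of 9 receptors, against 0.963% of 8726 genes tested. None was under 0.05 unadjusted, where 15% of all genes were, and DESeq2 called 0, against 5.27% of the genes it tested. Octbeta3R had the lowest adjusted p (0.377), with a log2 difference of 0.29 (95% interval -0.03 to 0.61), and TyrRII had the widest interval (-2.06 to 0.74). Of the 10 glial markers tested, 5 were called lower in replicate 1 in the same fit, and all 10 had negative log2 differences. Their part in the receptor values was not tested.

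Other genes of amine signalling were taken from lists that were chosen with earlier results of these data known. Shares over these lists are therefore given as a description. Of 59 listed genes for amine synthesis and transport, G proteins, cAMP, calcium, receptor desensitization and the other amine receptors, 53 were tested, 1 was called higher by edgeR and 0 lower, or 1.89% against 0.495% of all genes tested. The one called was AANAT1, an N-acetyltransferase that inactivates octopamine and other amines, at 211 ± 11.8 CPM in the control and 285 ± 10.9 CPM in the mutant (SD, n = 4; log2 fold change 0.44, edgeR adjusted p = 0.0296). At an unadjusted p under 0.05 there were 8, or 15.1% of those tested against 7.01% of all genes. DESeq2 called 3, or 5.66% against 1.42%, and added CrebA, a transcription factor (log2 fold change -1.07, adjusted p = 0.00241), and Epac, a cAMP-gated exchange factor (0.49, adjusted p = 0.0113). The paper saw its calls between these genotypes gathered on 2R, the arm of SerT, and proposed that some may be artefacts of the deletion. Where AANAT1 and the other listed genes lie was not examined, and the part of position in their values was not tested.

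Tbh, the enzyme that turns tyramine into octopamine, was at 8.45 ± 2.53 CPM in control KCs and 4.86 ± 2.69 CPM in mutant KCs (SD, n = 4; edgeR adjusted p = 0.734). Tdc1 and Tdc2, the tyrosine decarboxylases before it, are listed at 0 in every sample because their spans lie wholly under other genes. The sums of the strand-specific columns held 329 and 444 reads for them over 10 samples. The first strand held 48.3% to 49.9% of such reads per sample over all genes, so strand does not tell overlapping genes apart. These reads cannot be assigned to Tdc1 or Tdc2, and the 0 shows neither presence nor absence.

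Over the 10 samples, the genes with profiles most like Oct-TyrR were Acbp1 (Pearson r = 0.971 of log2 CPM) and CG11700 (0.912), those most like CG13579 were AttB (0.929) and UBL3 (0.925), and those most like Oamb were CG8066 (0.955) and fax (0.937). For Octbeta1R they were CG32815 (0.901) and CG33203 (0.896), and for Octbeta3R CG2701 (0.946) and dpr14 (0.945). For Octalpha2R they were CG2765 (0.926) and otu (0.925), for Octbeta2R lncRNA:CR44441 (0.926) and faf (0.897), for TyrR Amun (0.857) and kri (0.855), and for TyrRII Cad86C (0.900) and Polr3B (0.879). These are the highest correlations among all genes tested, over 10 samples of both genotypes and unequal depth, and they are given as a description. Some of the genes were near the floor. AttB, lncRNA:CR44441, otu and CG8066 averaged 0.458, 0.464, 0.574 and 1.76 CPM, so their correlations rest on few reads.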

How the data were processed

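Kenyon cells of 5 dSERT16 and 5 dSERT4 samples were profiled by SMART-seq. The authors aligned reads with STAR and deposited read counts per gene without normalization, in which reads under overlapping genes are left out. The annotation release and count settings are not given in the sources used here. The deposited table also holds TPM values by the authors for 8 samples, and the authors' own log2 fold changes and p-values, which were not used. All columns of per-sample values used were matched to samples by name.

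The unstranded counts entered edgeR 4.0.16 under R 4.3.3 (filterByExpr, TMM, robust glmQLFit and glmQLFTest, Benjamini-Hochberg adjustment, threshold 0.05), without covariates between genotypes and with genotype as covariate between replicate 1 and the rest. DESeq2 1.42.0, other normalizations and filters, the strand-summed counts, all 5 pairs, a replicate block and leaving out each sample were alternatives. Steps were tested on simulated data. CPM values are TMM-normalized. Positions come from a BDGP6 annotation. Intervals are 95%. Samples are pools of brains, and p-values measure the spread between them. Sequences were not used here.

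The members and gene lists were chosen with earlier results of these data known. Named genes are every receptor, SerT, the nearest tested genes around CG13579, the called genes of each list and the 2 genes most correlated with each receptor. Syngr, Tbh and the genes called by DESeq2 alone were named after their values were seen.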

Additional observations from a re-analysis of the deposited data

Results flagged for a closer look

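CG13579 in dSERT4 replicate 2 was at 17.1 CPM, below the 20.6 to 22.2 CPM of the other 4 control samples. In log2 CPM the gap was 0.713 of the group's range, against a critical value of 0.71. It was the 1 such group among 18 examined on the log2 scale, and chance alone gives about 1 in 20. The flag depends on the scale. In CPM this gap falls short of the critical value, while that of TyrRII in dSERT16, through replicate 3, exceeds it.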

How the results depend on the processing

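The count of genes called between the genotypes was 43 and became 148 with DESeq2, 77 without a filter on low counts, 66 with all 5 pairs and 94 with a replicate block over all 5 pairs; leaving out 1 sample gave 18 to 40. Between replicate 1 and the rest it was 84, 513 with DESeq2 and 23 to 136 with 1 sample left out. Leaving out 1 sample moved Octbeta3R between -0.24 and 0.0091 and TyrR between -0.30 and 0.079 (log2 fold change between genotypes). In the comparison of replicate 1 it moved Oamb between -0.047 and 0.022, Oct-TyrR between -0.23 and 0.27 and TyrRII between -1.71 and 0.067, and Oamb was 0.021 without a filter. The cause was not tested. Same-numbered samples of the genotypes, which the study processed in parallel, correlated at 0.0546 to 0.217 in their deviations, over 0.1 for 3 of 5 numbers, against a mean of -0.029 and a highest value of 0.0736 between different numbers; 9 of 10 samples correlated best with their own number. These values hint at shared collections, which no label states, and the fit without a block was kept. The replicate block over replicates 2 to 5 called 54 genes, changed no receptor's call and gave Oct-TyrR -0.74 (edgeR adjusted p = 0.0662). TyrRII and Octbeta2R had the fewest reads and the least precise estimates. Levels per kb of gene span, an alternative added after seeing the data, gave CG13579 0.827% and TyrR 2.11% of the summed level in dSERT4, against 1.73% and 1.11% per kb of exon.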
